A study of Mus musculus with 6 samples.

Results

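Neurotrophins are small secreted proteins that keep neurons alive and adjust synapses, and the genes described here are a pair of them and the receptors that bind them. The set holds 6 of the 55401 genes in the count table: the ligands Bdnf and Ntf3, the tyrosine kinase receptors Ntrk2 and Ntrk3, the p75 receptor Ngfr and the sorting receptor Sort1. Each was taken by its symbol, which matched a single Ensembl gene, and all 6 passed the filter on low counts along with 20581 other genes. The study sequenced bulk RNA of adult mouse anterior cingulate cortex in 6 libraries: 3 carry the label WT, for wild type at Ythdf1, and 3 the label KO, for its knockout. The comparison is KO against WT. The labels name no strain, age in weeks, sex, treatment or design of the allele, and they do not say that each replicate came from a separate animal, so the spread behind each p-value is that between samples and could be technical only.

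Neurotrophins are made as precursors and cleaved to mature ligands. Mature BDNF binds TrkB, the product of Ntrk2, and neurotrophin-3, the product of Ntf3, binds mainly TrkC, the product of Ntrk3. Activated Trk receptors signal through Shc and Frs2 adaptors to the Ras-MAPK, PI3K-Akt and PLC-gamma routes. The precursors instead bind p75 together with sortilin, the product of Sort1, which also carries BDNF into the regulated secretory route. In the cerebral cortex, excitatory neurons are the main source of BDNF and raise its transcription with activity. TrkB is carried by neurons in its full-length form and by astrocytes mostly in a truncated form with no kinase domain. YTHDF1 binds mRNA at N6-methyladenosine, or m6A, in the cytoplasm. The series title links it to anxiety- and depression-like behaviour.

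Bdnf is transcribed from several start sites, and RefSeq (GRCm38.p6) gives 7 of them. Because activity acts on Bdnf through CREB, the 250 bases before each start were searched on both strands for the half-site of the CREB motif, CGTCA or its reverse complement TGACG. Of the 7 Bdnf windows, 1 held a match, as did 17.8% of the 32851 windows in the RefSeq table. The full motif TGACGTCA was in 0 of the 7 and in 1.55% of all windows. The other members with a window in the table were Ntf3, Ntrk2 and Ngfr, and none of their 4 windows held the half-site. The Bdnf window with the match (chr2:109692186-109692435, + strand) and a start of Ntf3, the gene whose groups did not overlap (chr6:126164961-126165210, - strand), are shown to let their sequences be compared, with the half-site in capitals.
Bdnf upstream: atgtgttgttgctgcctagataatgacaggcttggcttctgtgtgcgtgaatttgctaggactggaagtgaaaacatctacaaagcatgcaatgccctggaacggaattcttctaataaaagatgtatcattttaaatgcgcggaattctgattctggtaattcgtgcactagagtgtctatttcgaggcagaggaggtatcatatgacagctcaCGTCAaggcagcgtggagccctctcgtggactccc
Ntf3 upstream: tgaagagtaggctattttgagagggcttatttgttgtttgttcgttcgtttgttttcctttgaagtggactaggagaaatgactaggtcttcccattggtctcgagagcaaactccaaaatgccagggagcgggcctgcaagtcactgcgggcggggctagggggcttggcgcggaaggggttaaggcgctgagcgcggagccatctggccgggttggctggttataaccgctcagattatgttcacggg
A gene total adds the transcripts of all starts, so the counts below cannot be assigned to either window, and a match of letters is not a measured site.

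Since m6A is often placed in the letters GGACT, the longest coding transcript of each member in GENCODE M21 was searched for them on its own strand. Sort1 had 15 matches in 6836 bases, or 2.19 per kilobase, above the median of 1.05 per kilobase over 15597 tested protein-coding genes. Ntrk3 had 25 matches in 19703 bases (1.27 per kilobase), Ngfr 4 in 3446 bases (1.16), Bdnf 3 in 4266 bases (0.703) and Ntrk2 5 in 8744 bases (0.572). Ntf3 had 0 in 1483 bases, against 92.6% of tested genes with at least 1 match. That share is over transcripts of any length, and a short transcript has fewer places for a match. In Bdnf-201, the Bdnf transcript searched, 2 of the matches lay in the coding sequence, at bases 146 and 291 of 771 counted from its start codon. Coding sequences of Bdnf transcripts run from 747 to 867 bases, so these positions hold for Bdnf-201. The 2 matches are printed here with GGACT in capitals because Bdnf is the ligand most tied to mood.
Bdnf coding base 146: gacccatgGGACTctggagag
Bdnf coding base 291: aaggacgcGGACTtgtacact
No methylation was measured in these libraries.

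The libraries held 61792250 to 69848835 counts. Levels are in CPM (counts scaled to library size with TMM factors), with the values of a group listed in the order of replicates 1, 2 and 3 and the group labelled WT always given first. Ythdf1 itself read 55.8, 53.3 and 49.0 CPM under the label WT and 58.2, 62.1 and 57.2 CPM under the label KO, so its gene total did not show the knockout named by the label. The label was kept, and every direction is drawn between libraries labelled KO and WT. As a check of the tissue, the excitatory neuron marker Slc17a7 lay between 860 and 1060 CPM in the 6 libraries. Some marker lists of other cell types were not level between the groups. All 12 tested genes of mature oligodendrocytes had higher values in the libraries labelled KO (median log2 fold change 0.35), and all 10 meningeal genes lower ones (-0.84). All 8 endothelial genes (-0.39) and 9 of 10 striatal genes (-0.49) were lower. All 9 genes of pericytes and smooth muscle were lower too (-0.38). edgeR called 0 of these genes after adjustment. An unadjusted edgeR p under 0.05 was found for all 10 meningeal, 8 oligodendrocyte, 7 pericyte and smooth muscle, 5 endothelial and 4 striatal genes. The share over all tested genes was 5.26%. DESeq2 called 6 of the 10 meningeal genes and 1 gene in each of the other lists named, against 0.132% of all genes. Most of the striatal difference came from WT replicate 2, where that list summed to 395 CPM. The remaining libraries labelled WT gave sums of 240.1 and 226 CPM, and the 3 labelled KO gave 205 to 208 CPM. Among other lists, median log2 fold changes were -0.04 for astrocytes, 0.07 for microglia, 0.06 for oligodendrocyte precursors and 0.03 for GABAergic interneurons. Upper-layer excitatory genes were lower for 6 of 7 (-0.13) and deep-layer ones higher for 5 of 7 (0.11). All 5 tested choroid plexus genes were lower (-0.50). Neither edgeR nor DESeq2 called a gene of these other lists. In bulk tissue, fewer cells of a type and less RNA per cell cannot be told apart.

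None of the 6 genes passed between the groups with edgeR's quasi-likelihood test adjusted over all 20587 tested genes, a test that called 0 genes in the whole table (0%), with 1083 genes (5.26%) at an unadjusted p under 0.05. limma voom also called 0 genes (1156, or 5.62%, at an unadjusted p under 0.05). DESeq2 called 32 genes (0.132%; 1190 at an unadjusted p under 0.05), none of them among the 6. At an unadjusted p under 0.05, the count among the 6 was also 0 with edgeR, limma voom and DESeq2. Ntrk2, Ntrk3 and Sort1 were measured closely, with 95% intervals of the fold change between 0.88 and 1.07. Bdnf, Ntf3 and Ngfr were measured more loosely.

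**Figure D1:**
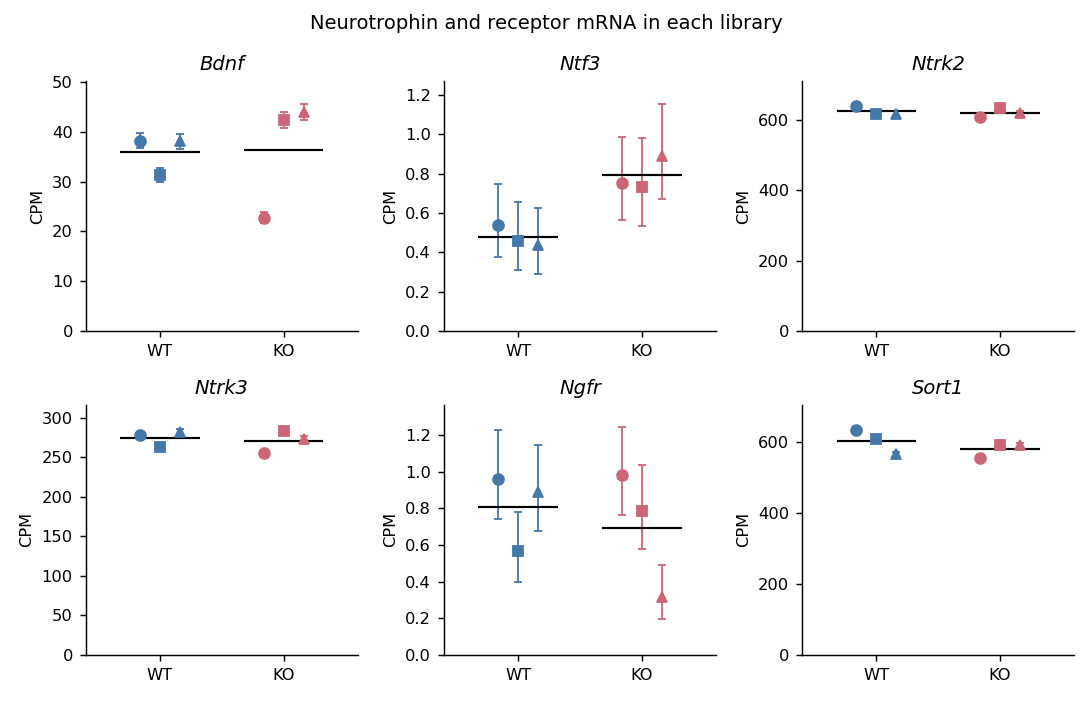
CPM of each gene in the 3 libraries labelled WT (blue) and the 3 labelled KO (red), with circles, squares and triangles for replicates 1, 2 and 3. Black lines are group means and bars are exact 95% Poisson intervals of the count. Ntf3 is the gene with no overlap between the groups, and KO replicate 1 has the lowest Bdnf at 22.7 CPM.

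Of the ligands, Bdnf (ENSMUSG00000048482, chromosome 2, 109674700 to 109727007 in GRCm38, + strand) read 38.2, 31.3 and 38.1 CPM under the label WT and 22.7, 42.3 and 43.9 CPM under the label KO. The groups overlapped, because KO replicate 1 was the lowest of the 6 libraries while the other KO libraries were the highest. The group means were 35.9 ± 3.92 CPM (WT) and 36.3 ± 11.8 CPM (KO; SD, n = 3 each). KO over WT gave a log2 fold change of 0.02, its standard error (SE) 0.21 and its 95% interval -0.46 to 0.49 (edgeR adjusted p = 0.998). That interval spans folds of 0.73 to 1.41. With 1602 to 2766 counts per library, counting alone gives an error of about 2.06%, against a biological coefficient of variation of 18.6% fitted by edgeR. The SD of Bdnf within groups, 0.39 on the log2 scale, was at or above that of 99.3% of the genes in the set formed by Bdnf and the 1000 genes nearest in level. Without KO replicate 1 the log2 fold change was 0.27 (edgeR adjusted p = 1.00), and without KO replicate 3 it was -0.15 (edgeR adjusted p = 0.965). An antisense gene, Gm45346, shares 896 exon bases with Bdnf and held 11 to 29 counts per library.

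KO replicate 1 also stood apart in other genes. Its mature oligodendrocyte list (12 genes) was 0.50 above the mean of the 6 libraries on the log2 scale, while the other 5 libraries lay between -0.24 and 0.06. The summed level of that list was 6875 CPM there, against 4522 and 5190 CPM in the other libraries labelled KO and 4053 to 4820 CPM in those labelled WT. Its upper-layer excitatory list (7 genes) was the lowest of the libraries at -0.20, with the others between -0.02 and 0.20. The list of 20 activity and BDNF response genes was at -0.05 in KO replicate 1 and was lowest in WT replicate 2, at -0.16. Among those genes Homer1, a postsynaptic scaffold, was at 174 CPM in KO replicate 1 against 238 to 292 CPM elsewhere. Egr3 (193 CPM), Egr4 (32.1 CPM), Nptx2 (25.2 CPM), Vgf (180 CPM), Fosb (23.8 CPM) and Dusp6 (83.1 CPM) were also lowest in that library. Dusp5 (23.7 CPM) was highest there, and the rest were neither. Arc, an immediate early gene of synapses, was at 481 CPM there against 330 to 483 CPM elsewhere. The part of cell composition in the Bdnf value of that library was not tested.

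**Figure D2:**
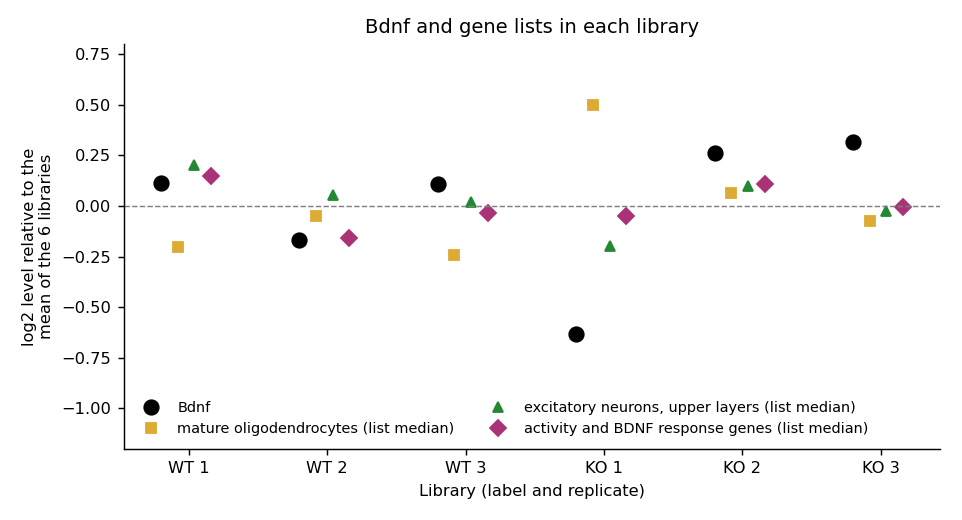
Log2 level of Bdnf and the median of 3 gene lists in each library, relative to the mean of the 6 libraries. In KO replicate 1 Bdnf is lowest, and the mature oligodendrocyte list is highest at 0.50.

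Ntf3 (ENSMUSG00000049107, chromosome 6, 126101412 to 126166910, - strand) was a rare transcript. It held 36, 30 and 29 counts under the label WT and 53, 45 and 56 counts under the label KO. Scaled, these were 0.541, 0.459 and 0.436 CPM against 0.753, 0.734 and 0.889 CPM. Every library labelled KO lay above every library labelled WT, a pattern that 5.84% of all tested genes showed in this direction and that 1 of these 6 genes showed. Group means were 0.479 ± 0.0551 and 0.792 ± 0.0848 CPM (SD, n = 3 each), and the log2 fold change was 0.72 (SE 0.34), with a 95% interval from -0.050 to 1.5. The difference did not pass (edgeR unadjusted p = 0.0635, adjusted p = 0.930). Counting error is large here, near 15.5% per library, and the exact 95% Poisson interval of the highest WT library (25.2 to 49.8 counts) overlaps that of the lowest KO library (32.8 to 60.2 counts). The SD of Ntf3 within groups was 0.15 on the log2 scale. That was at or above the SD of 1.80% of the set formed by Ntf3 and the 1000 genes nearest in level. Leaving out each library in turn gave log2 fold changes of 0.63 to 0.82. With no overlap between the groups, this step could not turn the direction.

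Of the Trk receptors, Ntrk2 (ENSMUSG00000055254, chromosome 13, 58806569 to 59133970, + strand) read 639, 616 and 618 CPM under the label WT and 608, 634 and 620 CPM under the label KO. The ranges overlapped. Group means were 624 ± 13.1 and 620.3 ± 12.9 CPM (SD, n = 3 each), with a log2 fold change of -0.0087, an SE of 0.044 and a 95% interval of -0.11 to 0.09 (edgeR adjusted p = 0.995). Of its 10 annotated transcripts 7 are coding, with coding sequences of 1398 to 2463 bases. The longest belong to the kinase form and the short ones to truncated forms, and a gene total cannot tell them apart.

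Ntrk3 (ENSMUSG00000059146, chromosome 7, 78175959 to 78738012, - strand) read 278, 263 and 282 CPM under the label WT and 256, 284 and 273 CPM under the label KO. Here too KO replicate 1 was lowest, and the groups overlapped. Group means were 274 ± 9.86 and 271 ± 14.2 CPM (SD, n = 3 each), and the log2 fold change was -0.02 (SE 0.054), with a 95% interval of -0.14 to 0.10 (edgeR adjusted p = 0.991). Without KO replicate 1 it was 0.02 (edgeR adjusted p = 1.00).

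Of the receptors for precursors, Ngfr (ENSMUSG00000000120, chromosome 11, 95568818 to 95587735, - strand) was also rare. It held 64, 37 and 59 counts under the label WT and 69, 48 and 20 counts under the label KO, or 0.961, 0.567 and 0.887 CPM against 0.98, 0.782 and 0.318 CPM. KO replicate 3 was lowest and KO replicate 1 highest, so the group labelled KO spanned the other. Group means were 0.805 ± 0.210 and 0.693 ± 0.340 CPM (SD, n = 3 each), with a log2 fold change of -0.21, an SE of 0.45 and a 95% interval of -1.23 to 0.81 (edgeR adjusted p = 0.985). Without KO replicate 3 the log2 fold change was 0.13 (edgeR adjusted p = 0.987). In the forebrain Ngfr is known chiefly from basal forebrain cholinergic neurons. The 5 tested genes of that list, Ngfr among them, summed to 2.87 to 3.97 CPM under the label WT and 1.91 to 3.79 CPM under the label KO. The sum was lowest in KO replicate 3, where Ngfr was lowest too. All 5 genes had lower values under the label KO (median log2 fold change -0.21), and 0 of them had an unadjusted edgeR p under 0.05. The other 4 genes did not share 1 lowest library: Slc5a7 (0.746 CPM) and Chat (0.254 CPM) were lowest in KO replicate 3, Slc18a3 in KO replicate 1 (0.0852 CPM) and Isl1 in WT replicate 1 (0.120 CPM). Slc18a3, Chat and Isl1 reached at most 0.398, 0.753 and 0.346 CPM in a library. Counting error is large at such levels, so the order of the libraries decides nothing. The part of such cells in the Ngfr value was not tested.

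Sort1 (ENSMUSG00000068747, chromosome 3, 108284082 to 108361511, + strand) read 635, 607 and 567 CPM under the label WT and 554, 591 and 592 CPM under the label KO. The highest values were in the WT group and the lowest was KO replicate 1, but WT replicate 3 lay inside the KO range. Group means were 603 ± 34.1 and 579 ± 21.9 CPM (SD, n = 3 each), and the log2 fold change of -0.06 had an SE of 0.055 and a 95% interval of -0.18 to 0.07 (edgeR adjusted p = 0.975). The antisense gene Gm12523 shares 338 exon bases with Sort1 and held at most 4 counts in a library. Apart from Gm45346 and Gm12523, no other gene matched a member's transcripts at 95% identity over at least 150 bases.

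**Figure D3:**
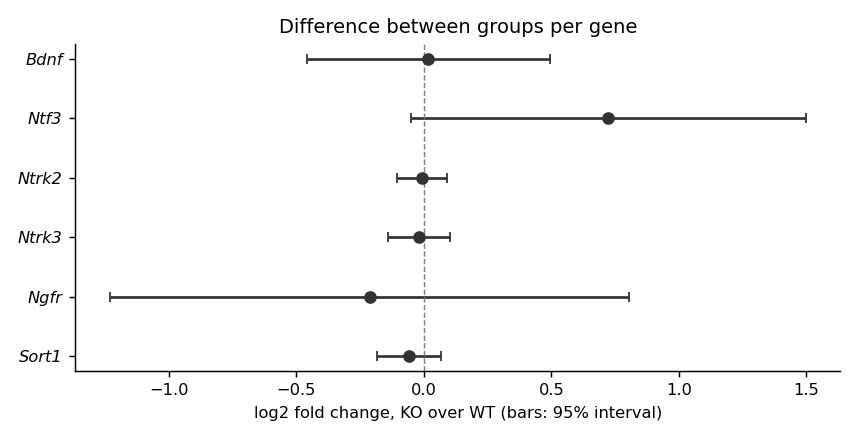
Log2 fold change of each gene, libraries labelled KO over those labelled WT, with the 95% interval from edgeR's fit. All intervals include 0, and those of Ntrk2, Ntrk3 and Sort1 are the narrowest of the 6.

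Per kilobase of annotated exon, the order of the levels was Sort1, Ntrk2, Ntrk3, Bdnf, Ntf3 and Ngfr. Sort1 lay between 73.1 and 83.8 CPM per kilobase over the 6 libraries, with a median of 78.1. Ntrk2 lay between 31.5 and 33.1, Ntrk3 between 8.47 and 9.40 and Bdnf between 3.66 and 7.06, so these 4 ranges did not touch. The Trk receptors were thus above their ligands on this scale, Ntrk2 above Bdnf and Ntrk3 above Ntf3. Ntf3 (0.254 to 0.519) and Ngfr (0.0921 to 0.284) were last, and their ranges overlapped. The order was the same per kilobase of the longest coding transcript, where Ntrk2 came closer to Sort1, with medians of 70.8 and 86.5 CPM per kilobase.

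A ratio of ligand to receptor counts within a library does not depend on scaling. For Bdnf and Ntrk2 there were 16.7, 19.6 and 16.2 receptor counts per ligand count under the label WT and 26.7, 15.0 and 14.1 under the label KO. KO replicate 1 again stood outside the range of the rest. The mean log2 ratio of Bdnf to Ntrk2 was -4.13 ± 0.148 in the libraries labelled WT and -4.15 ± 0.509 in those labelled KO (SD, n = 3 each), a difference of -0.03 (two-sided exact permutation p = 1). For Ntf3 and Ntrk3 there were 507, 563 and 636 receptor counts per ligand count in the libraries labelled WT and 336, 382 and 305 in those labelled KO. The log2 ratio was -9.14 ± 0.164 and -8.41 ± 0.165 (SD, n = 3 each), a difference of 0.74 with no overlap (two-sided exact permutation p = 0.1, the smallest that 3 against 3 allows). Groups that do not overlap always give this p. Ntrk3 had a log2 fold change of -0.02, so the ratio restates the Ntf3 difference and is no separate result. Of all tested genes, 11.0% had groups that did not overlap in CPM.

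Among themselves, the members varied together to different degrees over the 6 libraries. Pearson's r of the log2 CPM was 0.88 for Bdnf and Ntrk3, 0.75 for Ntrk2 and Sort1 and 0.74 for Ntrk2 and Ntrk3. KO replicate 1 was the lowest library for each of Bdnf, Ntrk2, Ntrk3 and Sort1, and its weight in these correlations was not tested. Ntf3 was near 0 with Bdnf (0.06) and Ntrk2 (-0.03). The lowest values were those of Ngfr with Bdnf (-0.43) and with Ntf3 (-0.41). These values describe the same 6 libraries, which differed in depth and in the marker lists above. The part of cell composition in these correlations was not tested. Among 11951 other genes averaging 5 CPM or more, those most like Bdnf were Rtn4rl2 (r = 0.992), Slc8a2 (r = 0.991) and Arhgef25 (r = 0.990), and 67 genes exceeded 0.95. Closest to Ntf3 were Mtln (r = 0.998), Ier3ip1 (r = 0.994) and Cript (r = 0.987). For Ntrk2 they were Zfp697, Fgd4 and Rtf1 (r = 0.995 to 0.991), and for Ntrk3 Sirpa, Mzf1 and Luc7l (r = 0.994 to 0.985). Tob2, Zkscan2 and Gnpda2 were closest to Ngfr (r = 0.988 to 0.978), and Alg10b, Dbpht2 and Zfp148 to Sort1 (r = 0.989 to 0.982). With 6 points and this many genes, values this high were found for each of the 6 members.

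Around the members, 113 further genes of the neurotrophin route were listed, of which 109 were tested. Of these, 49 were higher and 60 lower under the label KO. Their median log2 fold change was -0.0083, against -0.00062 over all tested genes. None passed with edgeR or DESeq2, and 2 of 109 (1.83%) had an unadjusted edgeR p under 0.05, against 5.26% of all tested genes. The groups did not overlap for 6 of the 109 (5.50%), against 11.0% of all tested genes.

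Other ligands and receptors of the family gave 3 higher and 3 lower of 6 tested, with a median log2 fold change of 0.03. The median turned to -0.060 without WT replicate 2, -0.015 without KO replicate 2 and -0.039 without KO replicate 3. The sortilin relatives Sorcs2 and Sorcs3 had log2 fold changes of 0.09 each. Ntf5, which encodes neurotrophin-4, held 0, 12 and 10 counts under the label WT and 0 in each library labelled KO, and was not tested.

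Genes of precursor processing and release gave 5 higher and 8 lower of 13 tested, with a median of -0.06. The median was 0.0092 without KO replicate 1. The proprotein convertase gene Pcsk5 was at 15.7 ± 1.79 and 13.6 ± 0.872 CPM, with a log2 fold change of -0.20 (SE 0.11). Serpini1, which encodes neuroserpin, a neuronal inhibitor of plasminogen activators, had one of 0.08. Plg and Mmp7 were not tested.

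Of 42 Trk adaptors and downstream kinases, 12 were higher and 30 lower, with a median of -0.02 that was 0.0012 without KO replicate 1. Hras, the Ras protein below Grb2 and Sos, was at 43.1 ± 2.59 and 47.4 ± 2.21 CPM (log2 fold change 0.14, SE 0.068). Slitrk5, a co-receptor of TrkB, was at 60.3 ± 5.54 and 53.2 ± 5.33 CPM (-0.18, SE 0.090), and the survival kinase gene Akt1 at 122 ± 5.90 and 131 ± 3.70 CPM (0.10, SE 0.053). The log2 fold changes of the whole list lay between -0.18 and 0.14.

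Co-receptors and adaptors of p75 gave 7 higher and 6 lower of 13, with a median of 0.01 that was -0.0094, -0.0047 and -0.0030 without WT replicate 1, WT replicate 3 and KO replicate 3. Bex1, which binds the intracellular part of p75, averaged 21.7 ± 1.84 CPM (WT) and 26.2 ± 2.41 CPM (KO), with no overlap. Its log2 fold change was 0.27, SE 0.097 (edgeR unadjusted p = 0.0204, adjusted p = 0.881). Its relative Bex3 was at 67.0 ± 2.15 and 70.5 ± 1.63 CPM, and Tnfrsf19, which can stand in for p75 beside the Nogo receptor, at 66.6 ± 3.69 and 60.4 ± 6.46 CPM.

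Regulators of the Bdnf gene gave 9 higher and 6 lower of 15, with a median of 0.03 that was -0.00043 without WT replicate 3. The CREB coactivator gene Crtc1 was at 202 ± 3.83 and 188 ± 3.18 CPM, with no overlap and a log2 fold change of -0.10 (SE 0.044; edgeR unadjusted p = 0.0476, adjusted p = 0.930). The activity-regulated factor genes Mef2d and Mef2c had log2 fold changes of -0.10 and -0.12. Activity and BDNF response genes gave 13 higher and 7 lower of 20, with a median of 0.03. Without WT replicate 2 that median was -0.068, and without WT replicate 1 it was 0.10. Arc was at 384 ± 69.4 and 448 ± 59.6 CPM (0.22, SE 0.13), Spry2, an inhibitor of receptor tyrosine kinase signalling, at 39.3 ± 0.602 and 42.0 ± 1.21 CPM with no overlap (0.10, SE 0.058), and the immediate early gene Ier2 at 8.56 ± 2.40 and 10.1 ± 0.151 CPM (0.24, SE 0.18). None of these lists held a gene past the threshold.

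**Figure D4:**
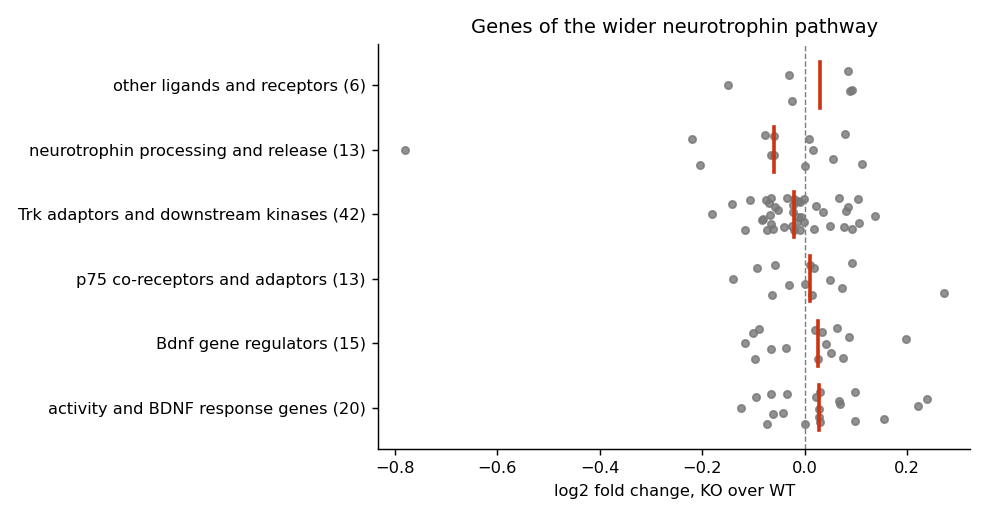
Log2 fold change, libraries labelled KO over WT, of the tested genes in 6 lists of the wider pathway (number of genes in brackets), with the list median as a red line. Medians lie between -0.06 and 0.03.

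The authors' deposited table lists 537 transcripts of 491 genes as differing between the genotypes, and it holds 0 transcripts of the 6 members. From the wider pathway it holds 6 transcripts of 4 genes. For scale, the counts had 20587 tested genes, 109 of them in the wider pathway and 6 of them members. That table holds only transcripts listed as differing, so it gives no share of all transcripts to set these counts against. In the authors' deposited table the Homer1 transcript ENSMUST00000080127 was at 26.2, 17.0 and 24.8 FPKM (fragments relative to transcript length and library depth) under the label WT and at 5.69, 5.45 and 6.72 FPKM under the label KO. Another Homer1 transcript, ENSMUST00000079086, went the other way in that table, at 5.24, 10.9 and 5.16 FPKM against 15.4, 18.0 and 19.5 FPKM. The Homer1 gene total in the counts had a log2 fold change of -0.07 (SE 0.16). The Hras transcript ENSMUST00000168550 was at 0.639, 0.784 and 1.13 FPKM in the libraries labelled WT and 4.46, 2.83 and 1.80 FPKM in those labelled KO in the authors' deposited table. For the Mef2c transcript ENSMUST00000197681 the authors' deposited table gives 0.402, 0.130 and 0.447 FPKM against 3.15, 0.394 and 3.20 FPKM, so KO replicate 2 lay within the WT range. The table also lists a further Homer1 transcript and a Camk4 transcript at 0 in every library labelled WT. Both were low under the label KO as well. The Homer1 transcript was at 0.0652, 0.234 and 0.0801 FPKM there, and the Camk4 transcript at 0.114, 0.614 and 0.382 FPKM.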

How the data were processed

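RNA of the anterior cingulate cortex was sequenced in 3 libraries labelled WT and 3 labelled KO. Per the labels' protocols, polyadenylated RNA was selected and dUTP strand-marked libraries were sequenced in pairs. StringTie 2.1.6, HISAT2 2.2.1, cutadapt 1.9, edgeR and DESeq2 are named in the submitters' processing notes, in no stated order. How genes were counted, whether by strand, and on which build is not given in the sources used here. Raw counts fill the deposited gene table and were used as they stand. A second table by the authors gives FPKM values per library for the transcripts they called different; the log2 ratios and q-values the authors deposited there are not printed.

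All genes were fitted with edgeR 4.0.16 in R 4.3.3 (filterByExpr, TMM, quasi-likelihood F-test, no covariate, Benjamini-Hochberg over all tested genes, threshold 0.05), with DESeq2 1.42.0 and limma voom 3.58.1 as alternatives. Log2 CPM used a prior count of 0.5, as did the ratios. The SE is the log2 fold change divided by the square root of F, and 95% intervals use edgeR's total degrees of freedom. Poisson intervals and errors of counting cover counting error only. Positions, exon lengths and transcripts are from GENCODE M21 (GRCm38), upstream windows from RefSeq, and matches between transcripts from blastn 2.17.0. The pipeline was tested on simulated counts.

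The members and lists were chosen with earlier results of these data known. Named were the members, up to 3 genes of each list by the smallest unadjusted p, and the 3 genes most correlated with each member. Homer1, the response genes lowest or highest in KO replicate 1, Slc17a7, the cholinergic genes, Ntf5 and both antisense genes were named after their values were seen. Some genes that the rule names are not reported here. Other settings were further scaling factors, filters and tests, a replicate block, and each library left out.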

Additional observations from a re-analysis of the deposited data

How the results depend on the processing

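In all 14 alternatives run for Sort1 and all 13 for Ntf3 the direction stayed and the gene did not pass. The log2 fold changes were -0.10 to -0.02 for Sort1 and 0.63 to 0.82 for Ntf3. The Ntf3 groups did not overlap, so leaving out a library could not turn its direction. A mean of at least 1 CPM left Ntf3 and Ngfr out. Where the direction turned, the cause was not tested. Bdnf turned to -0.053 with limma voom and to -0.031 with the replicate block (edgeR adjusted p = 1.00), and ran from -0.15 to 0.27 with each library left out. Over the same leave-outs Ntrk2 ran from -0.024 to 0.0056, Ntrk3 from -0.052 to 0.022, Ngfr from -0.55 to 0.13, and the log2 ratio of Bdnf to Ntrk2 from -0.19 to 0.27. No member passed in any alternative. DESeq2 called 32 genes against 0, and leaving out 1 library called 0 to 2. With each library left out, the medians of all 6 pathway lists changed sign: -0.060 to 0.10 for other ligands and receptors, -0.093 to 0.0092 for processing and release, -0.027 to 0.0012 for Trk adaptors and kinases, -0.0094 to 0.014 for p75 partners, -0.00043 to 0.032 for Bdnf regulators and -0.068 to 0.10 for response genes. Replicate numbers showed no pairing in the counts: same-numbered libraries deviated from their group means with correlations of -0.03, 0.03 and 0.02, and the block called 0 genes. The labels do not say whether samples were paired, and these correlations cannot settle it. Depth limits Ntf3 and Ngfr most, where a library holds 20 to 69 counts.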
